A study of Mus musculus with 9 samples.

Results

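Complex I of the respiratory chain was described here through the transcripts of its nuclear-encoded subunits in mouse striatum. Members were the genes whose probe sets carried a single gene symbol beginning with Ndufa, Ndufb, Ndufc, Ndufs or Ndufv followed by a digit or by ab1, which leaves out the assembly factors named Ndufaf. This gave 34 genes of the 12393 on the array with a single symbol, and all 34 passed the filter on low values that left 7964 genes for testing. The members were found on 68 probe sets (sets of oligonucleotides read together as 1 signal for a transcript), of which 65 passed that filter. Where a gene had several, its probe set of highest mean was used. The members include 6 core subunits. Ndufb4, Ndufa11 and Ndufs6 were left out by the rule because their probe sets list several symbols.

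Striatal RNA came from male C57BL/6J mice aged 56 days, in 3 groups of 3 arrays described in the labels as biological replicates. The METH mice had been injected with methamphetamine, the MPTP mice with MPTP, and the Control mice with saline, and the labels present both toxin groups as models of Parkinson's disease. No genetic alteration is given for any group, and the sources used here state no dose, schedule or interval to dissection.

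Complex I takes electrons from NADH, hands them to ubiquinone and pumps protons across the inner mitochondrial membrane. In its matrix arm the N module oxidises NADH and the Q module passes the electrons along iron-sulfur clusters to ubiquinone, while the membrane arm, with a proximal and a distal part, holds the proton pumps and most accessory subunits. MPTP is converted in the brain to MPP+, which enters dopamine neurons and inhibits complex I. Methamphetamine is a dopamine-releasing drug that damages dopamine terminals at toxic doses. The dopamine neurons lie in the midbrain, so striatal RNA comes mainly from striatal neurons and glia.

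The promoters of the 4 members with an unadjusted p under 0.05 in METH against Control are printed as context for the transcripts that moved furthest. Each line gives the 120 bases before the annotated transcription start, 5′ to 3′ on the gene's strand, from RefSeq on GRCm38.p6, on the minus strand at chrX:37191239-37191358 for Ndufa1 and chr19:44555443-44555562 for Ndufb8, and on the plus strand at chr6:39592445-39592564 for Ndufb2 and chr8:83566638-83566757 for Ndufb7.
Ndufb8: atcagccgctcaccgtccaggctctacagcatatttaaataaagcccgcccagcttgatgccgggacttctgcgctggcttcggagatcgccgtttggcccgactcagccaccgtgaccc
Ndufb2: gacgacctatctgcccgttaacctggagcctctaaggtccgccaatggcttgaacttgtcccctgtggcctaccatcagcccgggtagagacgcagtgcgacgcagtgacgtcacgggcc
Ndufa1: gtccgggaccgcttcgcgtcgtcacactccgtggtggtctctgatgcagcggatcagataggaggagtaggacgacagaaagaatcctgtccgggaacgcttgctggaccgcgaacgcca
Ndufb7: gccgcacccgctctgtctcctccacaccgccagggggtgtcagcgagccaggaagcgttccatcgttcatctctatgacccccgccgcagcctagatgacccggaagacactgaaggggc
G and C made up at most 65.0% of these windows, that of Ndufb7, and the median share over the 33 promoters found for 31 members was 61.7%, against 54.2% over all 32851 promoters of the table.

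Promoters from 250 bases before to 50 after the start were searched on both strands for the short motifs of 4 factors known to act on respiratory chain genes. The NRF1 motif GCGCANGCG was found in 6 of the 33 member promoters, belonging to 5 genes, and in 6.25% of all promoters. The YY1 motif AAGATGGCG was found in 4 of 33 and in 1.40% of all promoters. The ETS and GABP motif CCGGAAGT was found in 1 of 33, that of Ndufs3, and in 3.89% of all. The ERR motif TCAAGGTCA was found in 0 of 33 and in 0.423% of all. None of the 4 motifs is contained in another, and a match describes the sequence only. The search itself fixed the matched bases, apart from the N of the NRF1 motif, so their likeness between members is no result. The YY1 matches begin 22 to 35 bases after the annotated start. The NRF1 and YY1 matches are printed in capitals with up to 10 bases on each side, 5′ to 3′ on the gene's strand. They come from RefSeq on GRCm38.p6, on the plus strand at chr10:80249463-80249491 for Ndufs7 and on the minus strand for the others, at chr6:24527698-24527726 for Ndufa5, chr17:24724407-24724435 for Ndufb10, chr4:123718266-123718294 for Ndufs5, chr15:82354249-82354277 for Ndufa6, chr2:36049329-36049357 for Ndufa8, chr6:126849097-126849125 for Ndufa9, chr3:51408915-51408943 for Ndufc1 and chr13:114388045-114388069 for Ndufs4. The matches in Ndufa6 and Ndufa8 read as the reverse complement of the motif.
Ndufa5, NRF1: tgtgtgagctGCGCAGGCGcaaatctacc
Ndufb10, NRF1: tcacctttctGCGCAGGCGtagaggtccc
Ndufs5, NRF1: gctgcttgctGCGCAGGCGcagacccgct
Ndufa6, NRF1: cgtggcaccgCGCGTGCGCacgctgaagg
Ndufa8, NRF1: tcgctggagaCGCATGCGCagatggtacc
Ndufa9, YY1: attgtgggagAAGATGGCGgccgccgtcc
Ndufc1, YY1: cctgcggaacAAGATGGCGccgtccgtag
Ndufs4, YY1: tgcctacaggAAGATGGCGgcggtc
Ndufs7, YY1: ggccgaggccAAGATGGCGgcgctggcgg
Ndufa5 has a pair of overlapping promoter entries that share the match printed, and Ndufa8 has a further match not printed. None of the 4 promoters printed above holds any of these motifs.

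The signals are linear intensities that had been scaled to a trimmed mean of 2501 on every array. Array medians lay between 1110.5 and 1233, and any pair of arrays had a Spearman correlation of 0.970 to 0.985 over probe sets. The distribution was narrowest on METH 2, where the middle 80% of probe sets spanned 6.25 log2 units, against 6.40 to 6.69 elsewhere, and its median was the highest. Defining markers of striatal spiny neurons were present on all arrays. Drd2, the dopamine receptor of indirect-pathway neurons, had a signal between 14795 and 20550, and Penk, the enkephalin precursor, between 47496 and 59113. Of 7 markers of cortical excitatory neurons, 4 had a probe set and 0 of these passed the filter on low values. Ttr, the defining marker of choroid plexus, ranged from 2853 on MPTP 2 to 65370 on Control 1. Precision is limited by having 3 arrays per group.

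In METH striata complex I transcripts were mostly lower than in Control striata, by a small amount for each gene, and no single subunit passed the test. The log2 fold change was below 0 for 32 of the 34 members (94.1%), against 49.7% of all genes tested, and its median was −0.13, a change of −8.41%, against a median of 0.00 over all genes tested. Members ranged from −0.31 for Ndufb8 to 0.04 for Ndufb5. With limma and Benjamini-Hochberg adjustment over 7964 genes, 0 members passed an adjusted p of 0.05 (adjusted p of 0.543 to 0.974), and 0.0126% of all genes passed. That share is 1 gene, Gfap, the intermediate filament of reactive astrocytes, which rose by 1.13 ± 0.13 log2 units (SE, adjusted p = 0.0404). That call was lost, with 0 genes passing, when arrays were centred on their medians and with a block for the replicate number. The same held when any one of METH 1, METH 3, MPTP 1, MPTP 3, Control 1 or Control 2 was left out. At an unadjusted p under 0.05, 4 members were lower and 0 higher, against 3.05% of all genes lower and 5.2% higher, and without METH 2 the lower members numbered 2. All 3 METH arrays lay below all 3 Control arrays for 10 members, against 7.19% of all genes, and above them for 0, against 6.48% of all genes. With 3 arrays in each group the smallest exact permutation p for a gene is 0.1, and no such test was run.

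In MPTP striata the difference from Control was smaller in the median and likewise passed the test for no member. The log2 fold change was below 0 for 27 of 34 members (79.4%), against 48.2% of all genes tested. Its median was −0.08, a change of −5.27%, against 0.01 over all genes tested, and members ranged from −0.25 for Ndufb7 to 0.11 for Ndufs8. In the same limma fit 0 members had an adjusted p under 0.05 (0.873 to 0.997), and 0.0126% of all genes did, which is again Gfap alone (1.14 ± 0.13, SE, adjusted p = 0.0382). Here 0 genes passed with centring, with array weights, with a block for the replicate number and with only the 2 groups in the fit. The same held with any one array other than Control 3 left out. At an unadjusted p under 0.05, 2 members were lower, Ndufb7 and Ndufa4, and 0 were higher, against 1.95% of all genes lower and 3.54% higher. That count of 2 became 0 without MPTP 2, MPTP 3, Control 1 or Control 2, and 1 with quantile or cyclic loess normalization. All 3 MPTP arrays lay below all 3 Control arrays for 6 members, against 5.14% of all genes, and above them for 0, against 6.13%. Without MPTP 3 the median was −0.05 and 25 of 34 members were lower, and the MPTP value was −0.083 for Ndufa1, −0.091 for Ndufa9, −0.049 for Ndufb8 and −0.038 for Ndufs1. Both toxin comparisons share the 3 Control arrays.

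**Figure D1:**
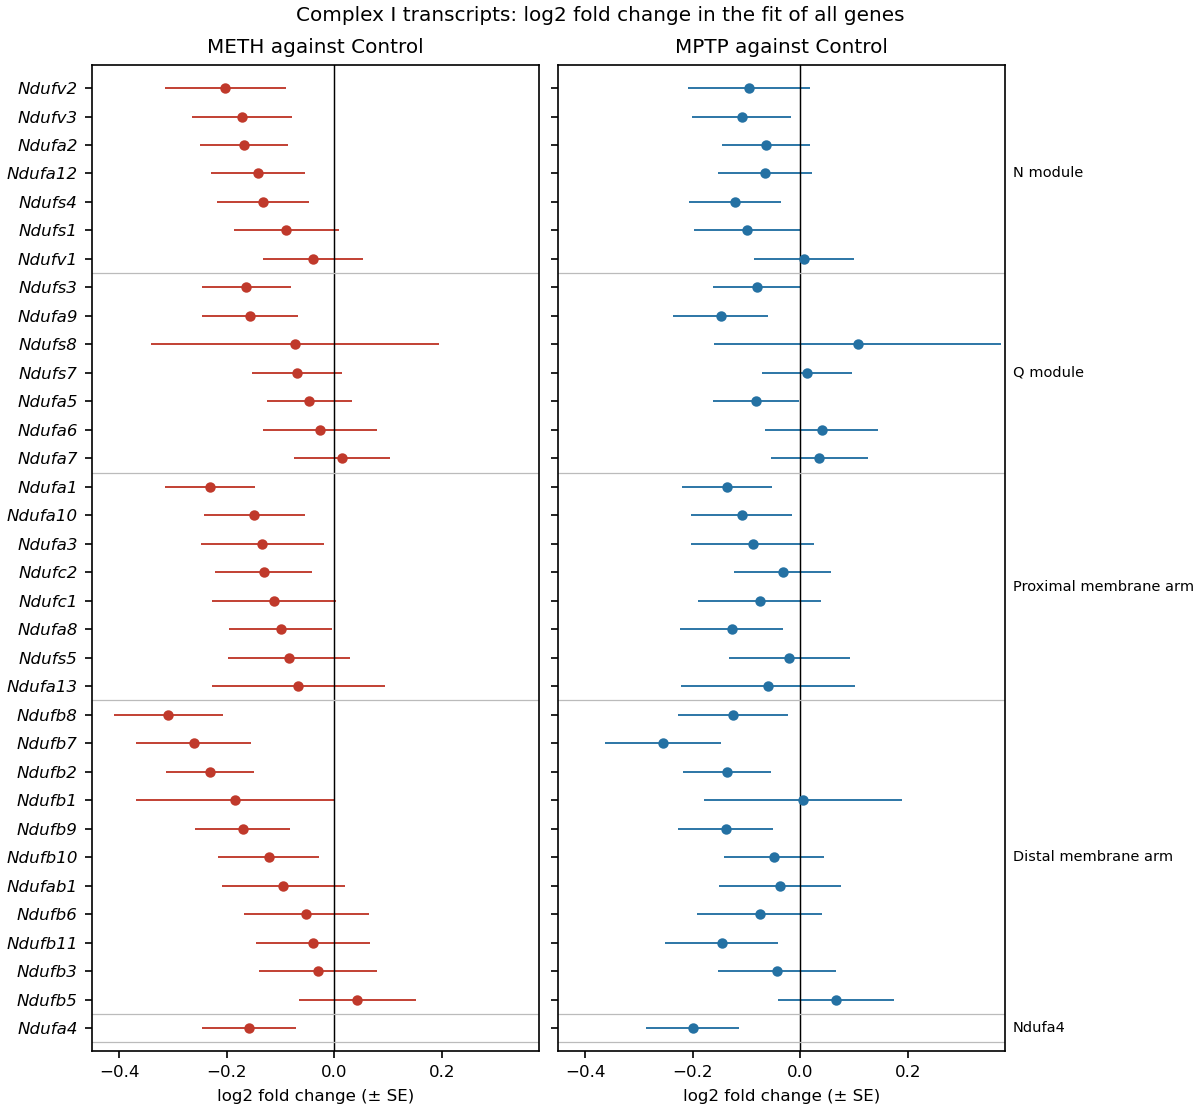
Log2 fold change of each of the 34 members on the horizontal axis, in METH against Control (left) and MPTP against Control (right), with bars for the SE of the fit and members grouped by their place in the enzyme. In METH 32 of 34 points lie left of 0, and in MPTP 27 of 34; Ndufs8 has the longest bar.

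The N module, which holds the NADH-binding end of the enzyme, was lower in METH for 7 of 7 members, at a median of −0.14. In MPTP it was lower for 6 of 7, with a median of −0.10. Ndufv2, a core subunit with an iron-sulfur cluster, had 16539, 14913 and 15551 in METH, 18714, 17634 and 14511 in MPTP and 16554, 18897 and 18685 in Control. The METH and Control arrays did not overlap, by a narrow margin, and MPTP had 2 arrays inside the Control range and 1 below it. Its log2 fold change was −0.20 ± 0.11 in METH and −0.10 ± 0.11 in MPTP (SE).

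Ndufv1, the core subunit that binds NADH and the flavin, had 11782, 12401 and 11543 in METH, 12282, 12157 and 12441 in MPTP and 11525, 13666 and 11626 in Control, so that the groups overlapped on this probe set. On its dimmest probe set every toxin array lay below every Control array, at −0.26 in METH and −0.13 in MPTP. On its probe set second in mean signal the groups overlapped, at −0.06 in METH and −0.08 in MPTP. Ndufs1, the large core subunit with several iron-sulfur clusters, had 8251, 7547 and 8145 in METH, 8720, 7826 and 7288 in MPTP and 9111, 8092 and 8282 in Control. Its groups overlapped as well. Ndufa2, an accessory subunit with a thioredoxin-like fold, had 6047, 5670 and 5644 in METH, 5928, 6335 and 6417 in MPTP and 6474, 6353 and 6680 in Control. All METH arrays were below all Control arrays, with a log2 fold change of −0.17 ± 0.08 (SE, adjusted p = 0.624 with limma), while MPTP overlapped Control (−0.06 ± 0.08). The other members of the module, Ndufv3, Ndufs4 and Ndufa12, lay between −0.17 and −0.13 in METH and between −0.12 and −0.07 in MPTP. Ndufv3 had all METH arrays below Control, and Ndufs4, whose loss causes Leigh syndrome in people, all MPTP arrays. For Ndufs4 this was close to a tie, with a highest MPTP array of 4933.9 and a lowest Control array of 4934.1. The other probe sets of Ndufs4 past the filter were at 0.07 and 0.28 in METH and at −0.07 and 0.34 in MPTP.

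The Q module, which reduces ubiquinone, had the medians closest to 0 of the 4 parts of the enzyme, a difference between parts that was not tested. In METH 6 of 7 members were lower with a median log2 fold change of −0.07, and in MPTP 3 of 7 with a median of 0.01. The MPTP count depended on the probe set used. With the mean of all probe sets per gene, Ndufs7 was at −0.076, Ndufs8 at −0.081 and Ndufa7 at −0.00463 in MPTP, all above 0 on the probe set used. Ndufs3, a core subunit, had 13094, 12699 and 13156 in METH, 14144, 13840 and 13277 in MPTP and 14495, 15344 and 13813 in Control. Its METH arrays lay below every array of both other groups, at −0.16 ± 0.08 against Control (SE, adjusted p = 0.632 with limma). Ndufa9, an accessory subunit at the junction of the arms, had 9001, 9767 and 9305 in METH, 9904, 9681 and 8685 in MPTP and 10938, 10089 and 10271 in Control. Here both toxin groups lay below Control, at −0.16 ± 0.09 in METH and −0.15 ± 0.09 in MPTP.

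Ndufs7, the core subunit that carries the last iron-sulfur cluster before ubiquinone, had 11802, 10903 and 11040 in METH, 12181, 12215 and 11341 in MPTP and 12312, 11408 and 11700 in Control. The MPTP arrays lay inside or just below the Control range, and the log2 fold change was −0.07 ± 0.08 in METH and 0.01 ± 0.08 in MPTP. Ndufa6, a small accessory subunit of the LYR family, had 10122, 9672 and 9654 in METH, 10810, 10794 and 9290 in MPTP and 8927, 10112 and 11058 in Control. Ndufa7, another accessory subunit, had 15458, 14033 and 15068 in METH, 15507, 14869 and 14815 in MPTP and 15787, 13587 and 14794 in Control. For both genes the Control arrays held the lowest and the highest signal of all 9. Ndufa5 was at −0.05 in METH and −0.08 in MPTP.

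Ndufs8, a core iron-sulfur subunit, was the least steady member. Its probe set of highest mean had 12841, 17986 and 8940 in METH, 17176, 12885 and 13561 in MPTP and 15389, 9483 and 16481 in Control, a within-group SD of 0.41 log2 units, where the members had a median SD of 0.09 and all genes tested 0.15. The fold change was −0.07 ± 0.27 in METH and 0.11 ± 0.27 in MPTP, and the scatter within each group was larger than either difference. Leaving out single arrays moved the METH value between −0.32 and 0.18. The gene has 6 probe sets, of which 5 were lower in METH and 4 in MPTP. The probe set second in mean signal had 11584, 11349 and 10170 in METH, 11716, 9763 and 10870 in MPTP and 12348, 12346 and 11964 in Control. On that probe set, chosen after its values were seen, all arrays of both toxin groups lay below Control, at −0.15 in METH and −0.18 in MPTP.

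**Figure D2:**
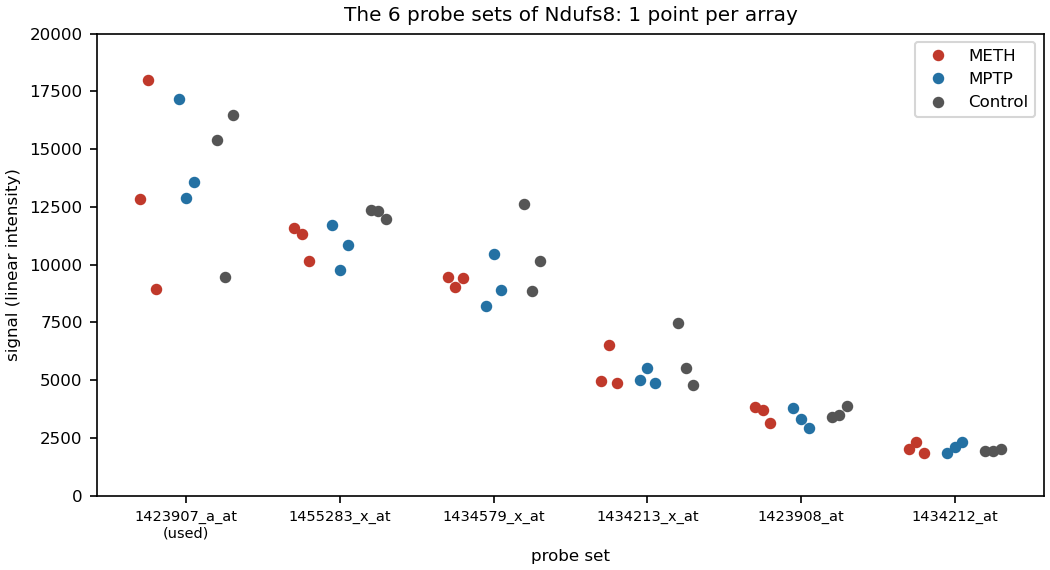
Signal (linear intensity) of the 6 probe sets of Ndufs8, with 1 point per array in METH, MPTP and Control. The probe set used spreads from 8940 to 17986 with all groups overlapping, while on the second the toxin arrays lie at 9763 to 11716 and the Control arrays at 11964 to 12348.

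In the proximal membrane arm 8 of 8 members were lower in METH, with a median log2 fold change of −0.12, and 8 of 8 in MPTP, with a median of −0.08. Ndufa1, a small membrane subunit encoded on the X chromosome and needed for assembly, had 28524, 27660 and 27935 in METH, 30844, 31290 and 27794 in MPTP and 32180, 33613 and 32928 in Control. Every METH and MPTP array was below every Control array. The log2 fold change was −0.23 ± 0.08 in METH, a change of −14.8% (SE, adjusted p = 0.543 with limma), and −0.14 ± 0.08 in MPTP (adjusted p = 0.883). The other 7 members (Ndufa3, Ndufa8, Ndufa10, Ndufa13, Ndufc1, Ndufc2 and Ndufs5) lay between −0.15 and −0.07 in METH and between −0.13 and −0.02 in MPTP, and their groups overlapped.

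The distal membrane arm held the members furthest from Control. In METH 10 of 11 were lower with a median log2 fold change of −0.12, and in MPTP 9 of 11 with a median of −0.08. Ndufb8, an accessory subunit whose protein is widely used as a gauge of assembled complex I, had 10931, 10737 and 11260 in METH, 13174, 13099 and 11224 in MPTP and 12225, 14342 and 14318 in Control. The METH arrays were tightly grouped below all Control arrays and the MPTP arrays straddled both. Its log2 fold change was −0.31 ± 0.10 in METH, a change of −19.3% (SE, adjusted p = 0.543 with limma), and −0.12 ± 0.10 in MPTP (adjusted p = 0.919).

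Ndufb2, an accessory subunit, had 13428, 12321 and 13181 in METH, 14072, 14010 and 13466 in MPTP and 15903, 14818 and 14946 in Control. On this probe set the 3 groups did not overlap, with METH lowest and Control highest. The log2 fold change was −0.23 ± 0.08 in METH (SE, adjusted p = 0.543 with limma) and −0.14 ± 0.08 in MPTP. On the gene's other probe set past the filter all groups overlapped, at −0.12 in METH and −0.07 in MPTP. Its highest signal was 9057, on MPTP 1. Ndufb7, an accessory subunit on the outer face of the membrane arm, had 7120, 6600 and 7875 in METH, 7433, 7017 and 7201 in MPTP and 8634, 9621 and 7679 in Control. All MPTP arrays were below Control, and in METH 1 array was above the lowest Control array. At −0.26 ± 0.11 in METH (SE, adjusted p = 0.545 with limma) and −0.25 ± 0.11 in MPTP (adjusted p = 0.873), it was the member with the smallest p in MPTP. Its other probe set past the filter was at −0.18 in METH and only −0.026 in MPTP. There both toxin groups overlapped Control, with 5549, 6084 and 5468 in MPTP and 5619, 5380 and 6444 in Control.

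Ndufb9, an accessory subunit of the LYR family on the brightest member probe set, had 29880, 30326 and 28389 in METH, 31855, 30142 and 28631 in MPTP and 30844, 34502 and 34465 in Control. On this probe set only METH lay wholly below Control, at −0.17 ± 0.09, while MPTP was at −0.14 ± 0.09 (SE). The gene's other probe set past the filter was at −0.52 in METH and −0.25 in MPTP, and there both toxin groups lay below Control. For MPTP the margin was narrow, with a highest array of 14716 against a lowest Control array of 14720. Ndufb1, on the dimmest of the member probe sets used, had 1605, 1267 and 1001 in METH, 1684, 1338 and 1340 in MPTP and 1648, 1190 and 1522 in Control, and its groups overlapped (−0.18 ± 0.18 in METH and 0.01 ± 0.18 in MPTP). The METH value was −0.35 without METH 1 and −0.014 without METH 3. Ndufb5, an accessory subunit of the distal arm, was the member with the highest fold change in METH. It had 15716, 13932 and 15293 in METH, 14886, 14940 and 15822 in MPTP and 15700, 12499 and 15610 in Control, and its difference from Control was within the spread of the groups (0.04 ± 0.11 in METH and 0.07 ± 0.11 in MPTP). Of the remaining 5 members of this arm, Ndufb3, Ndufb6, Ndufb10, Ndufb11 and Ndufab1 (the mitochondrial acyl carrier protein), the fold changes lay between −0.12 and −0.03 in METH and between −0.15 and −0.04 in MPTP.

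Ndufa4 carries a complex I name but is now counted as a subunit of complex IV. It had 20947, 18480 and 18720 in METH, 19735, 18625 and 18070 in MPTP and 21293, 21527 and 21983 in Control. Control arrays were close together and all toxin arrays were below them. The log2 fold change was −0.16 ± 0.09 in METH (SE, adjusted p = 0.646 with limma) and −0.20 ± 0.09 in MPTP (adjusted p = 0.873), among the lowest members in MPTP.

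**Figure D3:**
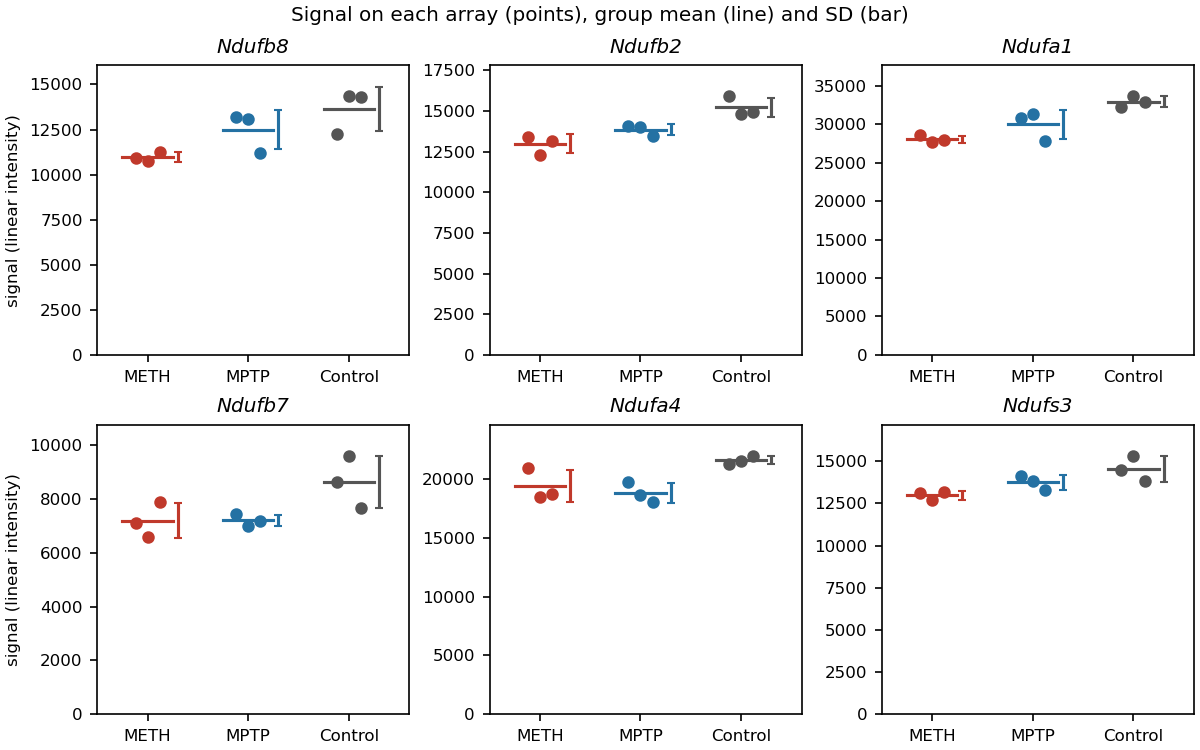
Signal (linear intensity, axes from 0) of 6 members on each array (points) with the group mean (line) and SD (bar, n = 3). METH arrays lie below all Control arrays for Ndufb8, Ndufb2, Ndufa1, Ndufa4 and Ndufs3, and MPTP arrays for Ndufb2, Ndufa1, Ndufb7 and Ndufa4.

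Over these 6 core subunits, which carry out electron transfer, the METH median was −0.08 with 6 of 6 lower, and the MPTP median was −0.04 with 3 of 6 lower. The MPTP count depended on the probe set used. With the mean of all probe sets per gene, the 3 members above 0 in MPTP fell below it, Ndufs7 at −0.076, Ndufs8 at −0.081 and Ndufv1 at −0.068. Probe sets for the same gene did not always point the same way. Of the 19 members with several probe sets past the filter, all pointed in the same direction for 14 in METH and for 12 in MPTP. Among the 65 probe sets past the filter, 58 were lower in METH and 54 in MPTP. With the mean of all probe sets per gene in place of the brightest, 32 of 34 members were lower in METH and 31 of 34 in MPTP.

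Set directly against MPTP, METH striata had lower complex I signals for 27 of 34 members, against 52.9% of all genes, at a median of −0.05 against −0.01 over all genes tested. With limma 0 members passed (adjusted p of 0.999 throughout), as did 0% of all genes, and at an unadjusted p under 0.05 the members numbered 0, against 1.29% of all genes lower and 1.56% higher. All METH arrays lay below all MPTP arrays for 2 members, Ndufb2 and Ndufs3, against 3.7% of all genes, and above them for 0, against 3.39%. Among the brightest 10% of genes, those that are not members were lower for 67.5%. The members lower numbered 24 after quantile normalization, with a median of −0.033, and 22 after cyclic loess normalization, with a median of −0.024. Ndufb8 had the smallest p of the members in this comparison, at −0.18 ± 0.10 (SE, adjusted p = 0.999). Without METH 2 the members lower numbered 17 of 34 and their median was −0.004.

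The members were not equally low on every array of a group. As a deviation from each gene's mean over the 9 arrays, the median of the members was −0.03, −0.12 and −0.04 log2 units on METH 1, 2 and 3, 0.03, 0.00 and −0.07 on MPTP 1, 2 and 3, and 0.11, 0.03 and 0.08 on Control 1, 2 and 3. The Control arrays other than Control 2 were thus higher than every toxin array, and MPTP 1 was slightly above Control 2. The same median over all genes stayed between −0.01 and 0.01. METH 2, the array with the narrowest distribution, was the lowest of the 9 for 16 members, and MPTP 3 for 9. Without METH 2, 26 of 34 members were lower in METH than in Control and the median was −0.09. Values after the distributions were made equal are given next.

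**Figure D4:**
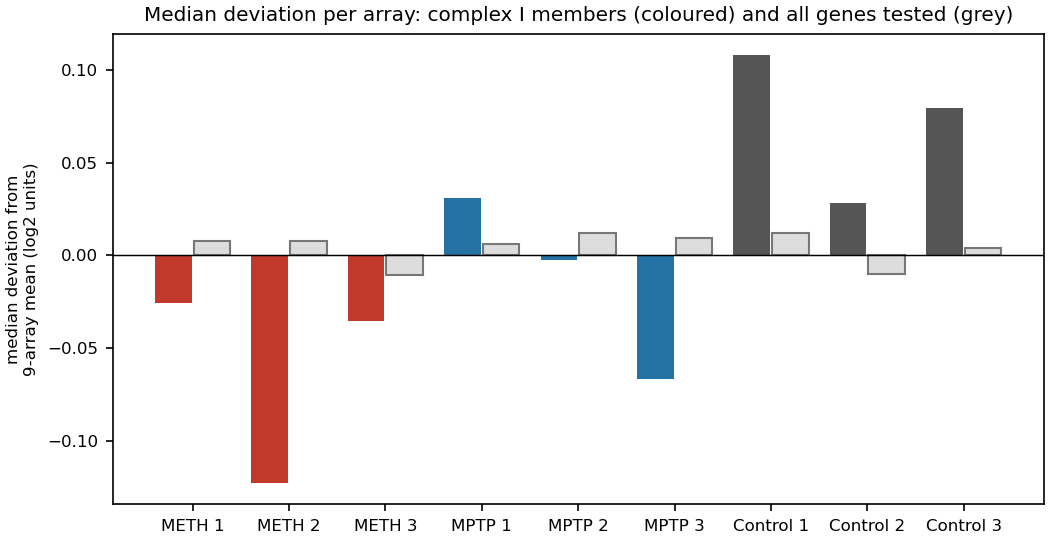
Median deviation of the members from their 9-array means (log2 units, coloured bars) beside the same for all genes tested (grey bars), per array. The 3 METH bars, MPTP 2 and MPTP 3 lie below 0, METH 2 lowest at −0.12, and the 3 Control bars lie above 0.

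Brightness moved with the fold changes. Of the 34 members, 21 were among the brightest 10% of genes tested, where the 776 genes that are not members were lower in METH for 73.3% with a median of −0.06, and lower in MPTP for 66.4% with a median of −0.04. The 21 bright members had a median of −0.13 in METH (19 lower) and −0.08 in MPTP (16 lower). The 13 members outside that brightest 10% had medians of −0.10 (13 lower) and −0.08 (11 lower). Most of them were still bright: of 10 equal classes of brightness, the second brightest held 10 of them. The genes of that class had a median of −0.05 in METH and −0.02 in MPTP. Quantile normalization, which makes the distributions equal, brought the other bright genes to 54.1% lower and a median of −0.01 in METH, and the bright members to −0.09 (18 of 21 lower). It brought the 13 members outside the brightest 10% to −0.08 in METH (10 lower) and −0.05 in MPTP (12 lower). Over all 34 members the median was then −0.08 in METH (28 lower) and −0.05 in MPTP (26 lower). With cyclic loess normalization it was −0.07 in METH (29 lower) and −0.06 in MPTP (28 lower).

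**Figure D5:**
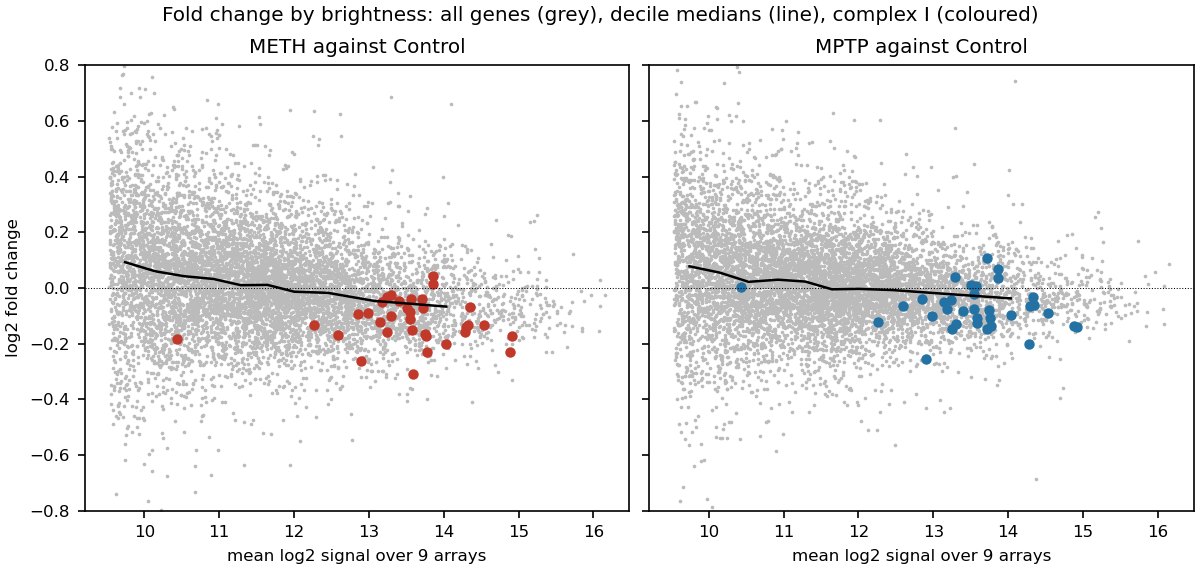
Log2 fold change against mean log2 signal over the 9 arrays for all genes tested (grey) and the members (coloured), in METH against Control (left) and MPTP against Control (right); the line joins the medians of 10 equal brightness classes. The line runs from 0.09 in the dimmest class to −0.07 in the brightest in METH and from 0.08 to −0.04 in MPTP; 25 and 16 genes lie outside the axis.

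The other respiratory complexes were measured in the same fit, and 0 of their genes passed the test in either direction. For comparison, 49.7% of all genes tested were lower in METH and 48.2% in MPTP. Among the brightest 10% of genes, those that are not members were lower for 73.3% in METH and 66.4% in MPTP. The lists of the other complexes were not set out after other normalizations. In complex III with cytochrome c, 9 of 10 genes were lower in METH (median −0.15) and 9 of 10 in MPTP (median −0.11). Cycs, which carries electrons between complexes III and IV, had 20856, 21159 and 19514 in METH, 23012, 22619 and 21494 in MPTP and 24518, 24288 and 26282 in Control, with no overlap between the 3 groups. Its log2 fold change was −0.29 ± 0.08 in METH (SE, adjusted p = 0.503 with limma) and −0.16 ± 0.08 in MPTP (adjusted p = 0.873). Uqcrh, the hinge subunit of complex III, was at −0.25 ± 0.10 in METH.

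Complex IV, the terminal oxidase, had 9 of 9 genes lower in METH (median −0.13) and 8 of 9 in MPTP (median −0.06), with Cox8a at −0.20 ± 0.09 and Cox4i1 at −0.19 ± 0.09 in METH. Complex V, the ATP synthase, had 14 of 15 lower in METH (median −0.13) and 11 of 15 in MPTP (median −0.04), with Atp5j at −0.20 ± 0.08 and Atp5e at −0.29 ± 0.12 in METH. Complex II, which feeds electrons from succinate without pumping protons, had 4 of 4 lower in METH (median −0.09) and 1 of 4 in MPTP (median 0.03). Its Sdhd was at −0.33 ± 0.17 in METH and Sdhc at 0.19 ± 0.13 in MPTP.

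Factors that build complex I or set the expression of its genes were also listed. Of 11 assembly factors 10 were lower in METH (median −0.07) and 5 in MPTP (median 0.00), with Acad9 at −0.18 ± 0.12 and Ndufaf3 at −0.13 ± 0.10 in METH. Of 12 regulators of mitochondrial biogenesis 10 were lower in METH (median −0.07) and 9 in MPTP (median −0.09), and 0 passed. Ppargc1b, a coactivator of respiratory genes, had 5881, 5806 and 5671 in METH, 6065, 5502 and 5869 in MPTP and 6514, 7095 and 6548 in Control. All toxin arrays were below Control, at −0.21 ± 0.08 in METH (SE, adjusted p = 0.543 with limma) and −0.21 ± 0.08 in MPTP (adjusted p = 0.873).

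Marker lists of the cell types in the tissue are given beside the complex I values, and in these bulk samples fewer cells of a type and less RNA per cell cannot be told apart. Of all 7964 genes tested, 4006 were higher in METH and 4123 in MPTP. The lists were not matched to other genes for brightness. Microglia markers were higher for 8 of 8 genes in METH and 8 of 8 in MPTP, with summed signals of 51792 to 52457 in METH, 48646 to 52909 in MPTP and 42527 to 48853 in Control. Astrocyte markers were higher for 7 of 8 in METH and 6 of 8 in MPTP, with sums of 93996 to 100934 in METH, 95527 to 103902 in MPTP and 87052 to 91974 in Control. These sums include Gfap, and sums without it were not computed. The median log2 fold change of the astrocyte list was 0.08 in METH and 0.17 in MPTP. Oligodendrocyte markers were higher for 4 of 7 in METH and 7 of 7 in MPTP, with sums of 150641 to 159882 in METH, 152490 to 171620 in MPTP and 139243 to 157820 in Control. Gfap had 13823, 10957 and 12077 in METH, 13596, 11350 and 12025 in MPTP and 5403, 5020 and 6436 in Control. It was the marker that passed the test in the fit of all 9 arrays, with the exceptions given above.

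Pan-neuronal markers were lower for 7 of 10 in METH (median −0.14) and 6 of 10 in MPTP (median −0.04), with summed signals of 157048 to 167674 in METH, 166932 to 172131 in MPTP and 164560 to 180207 in Control. For comparison, 49.7% of all genes tested were lower in METH and 48.2% in MPTP. Among the brightest 10% of genes, those outside complex I were lower for 73.3% in METH and 66.4% in MPTP. Spiny neuron markers were lower for 6 of 8 in METH (median −0.08) and 7 of 8 in MPTP (median −0.13), with sums of 184617 to 197634 in METH, 167339 to 199367 in MPTP and 190000 to 215798 in Control. Snap25, a synaptic protein of all neurons, had 31674, 34015 and 31410 in METH, 35110, 32211 and 32262 in MPTP and 34580, 36616 and 38635 in Control. Endothelial markers were balanced, with 3 of 6 lower in METH and 2 of 6 in MPTP. Choroid plexus markers, 4 with a probe set and 2 tested, had summed signals of 10117 to 53138 in METH, 4385 to 35289 in MPTP and 13221 to 68813 in Control, a ratio of mean sums of 0.408 for MPTP over Control with overlapping ranges. Slc17a7, the defining marker of cortical excitatory neurons, had no probe set with a single symbol and was not measured. The part of the marker shifts in the complex I values was not tested.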

How the data were processed

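Striatal total RNA was measured on 9 single-colour Affymetrix arrays. The deposited values are linear intensity values for 22690 probe sets, scaled to a common trimmed mean (2% left out at each end, from the values). The submitters' processing notes list RMA, but the values are not log-scaled and vary widely among dim probe sets, so how probe sets were summarised is unsettled. Symbols came from the platform annotation, which belongs to another array design than the design text gives: 20380 probe sets had 1, 691 several and 1555 none, and 64 were controls.

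No pseudocount was added before taking log2. Dim probe sets, those below the 40th percentile of mean log2 signal (9.53, a signal of 741), were left out, and the probe set of highest mean stood for each gene. The comparisons used limma 3.58.1 under R 4.3.3 (1 mean per group, all 9 arrays, eBayes, two-sided), adjusted by Benjamini-Hochberg over 7964 genes, and the fit was tested on simulated data. The ± after a fold change is its SE.

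Members and lists were chosen with earlier results of these data known. Named by rule were the members with the smallest p (6 per toxin comparison, 3 in METH against MPTP), the core subunits, Ndufa4, members above 0 in a toxin comparison, the brightest and dimmest, up to 2 genes of each pathway list, and defining markers. Other members named, and the split by brightness, were chosen after seeing the data. Alternatives were other normalizations, filters, probe set rules, a pseudocount of 16, array weights, a replicate block, only the 2 groups compared, and leaving out each array.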

Additional observations from a re-analysis of the deposited data

How the results depend on the processing

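No member of complex I passed the test under any alternative run. The METH median of the members stayed negative under all of them, at −0.073 with cyclic loess normalization and −0.19 with arrays centred on their medians, which moved the median of all genes to −0.063. The 1 gene called in METH became 0 with centring, and the 1 called in MPTP became 0 with centring, with array weights and with only the 2 groups compared, and 2 with no filter on dim probe sets. With each array left out in turn both counts ran from 0 to 2, the members lower ran from 26 to 33 in METH, from 25 to 32 in MPTP and from 17 (without METH 2) to 30 in METH against MPTP. With the replicate block 0 genes were called in METH and 0 in MPTP, and the members' medians were −0.127 and −0.078, as without it. The shared numbers did not pair the arrays (same-number correlations of −0.152 to 0.047, 0 of 9 arrays closest to their own number), and the block changed no call of a member.

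Members near 0 changed sign, none of them past the test, and the cause was not tested except where stated. In METH, Ndufa6 was 0.016 with quantile and 0.00604 with cyclic loess normalization, Ndufa7 −0.049 with centring, −0.12 with the mean of probe sets and −0.065 with only the 2 groups, where another of its probe sets had the highest mean and was used, and Ndufb5 −0.021 with centring. In MPTP, quantile normalization gave −0.032 for Ndufb1, cyclic loess −0.039, centring −0.035 and array weights −0.00660. Ndufa6 was −0.000551 with centring and −0.013 with array weights, and Ndufa7 −0.00477 with centring and −0.00463 with the mean of probe sets. Centring gave −0.027 for Ndufs7 and −0.033 for Ndufv1, and the mean of probe sets gave −0.076 for Ndufs7, −0.068 for Ndufv1, −0.00812 for Ndufb5 and −0.081 for Ndufs8. Leaving out single arrays gave ranges in METH of −0.32 to 0.18 for Ndufs8, −0.11 to 0.047 for Ndufa6, −0.042 to 0.066 for Ndufa7, −0.065 to 0.099 for Ndufb5 and −0.083 to 0.040 for Ndufv1. In MPTP the ranges were −0.042 to 0.11 for Ndufa6, −0.021 to 0.087 for Ndufa7, −0.13 to 0.10 for Ndufb1, −0.042 to 0.12 for Ndufb5, −0.012 to 0.048 for Ndufs7, −0.14 to 0.26 for Ndufs8, −0.036 to 0.087 for Ndufv1 and −0.17 to 0.012 for Ndufv2. Without a change of sign, single arrays moved other members by over 1.5 times, in METH over −0.35 to −0.014 for Ndufb1, −0.12 to −0.038 for Ndufs1 and −0.105 to −0.040 for Ndufs7, and in MPTP over −0.20 to −0.049 for Ndufb8, −0.17 to −0.038 for Ndufs1, −0.168 to −0.083 for Ndufa1, −0.185 to −0.091 for Ndufa9, −0.085 to −0.028 for Ndufa2 and −0.117 to −0.041 for Ndufs3. With the replicate block the members lower at an unadjusted p under 0.05 numbered 3 in METH and 0 in MPTP.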
